A study of Rattus norvegicus with 8 samples.

Results

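The genes described here are 36 genes that mark microglia and other macrophages, the resident and blood-derived phagocytes of nervous tissue. The list was written as known markers of these cells, and each gene was read from the array feature whose annotation gives that 1 symbol. Of the 36 genes, 35 were measured among 14506 genes in all. Msr1, a scavenger receptor, had no such feature. They were followed in rat (Sprague-Dawley) myelinating cultures, which are dissociated spinal cords of rat embryos (E15.5, in days of gestation) grown until axons are wrapped in myelin. Of the 4 groups, the controls received no factor and were collected at 24 h or at 10 days, and the others received human FGF9 (fibroblast growth factor 9) at 100 ng/ml for 24 h or 10 days, with 2 arrays in each group. A control array and an FGF9 array of 1 time whose titles give the same replicate number are called a pair, so there are 4 pairs. No genotype, transgene or age difference separates the groups. The titles and the cell type label name myelinating cultures, whereas the source label of all 8 samples names astrocytes derived from neurospheres. Nothing states that replicates were separate preparations of embryos, so p-values measure the spread between these samples, which may be technical.

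Microglia depend on the receptor CSF1R and its ligands CSF1 and IL-34, and on the transcription factor PU.1, encoded by Spi1. In resting tissue they carry surface proteins such as CX3CR1, P2RY12, TMEM119 and GPR34, and they read debris and lipids through TREM2, which signals through the adaptor TYROBP. They make the C1q complement subunits, carry the integrin CD11b/CD18, sense microbial products through Toll-like receptors, and digest cargo in lysosomes rich in cathepsin S and CD68. In cultures of whole spinal cord they are a minority beside neurons, astrocytes and oligodendrocytes, so in RNA from all cells a lower level of these genes can come from fewer such cells or from less RNA per cell, which cannot be told apart here.

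PU.1 binds a purine-rich core, and the 7 letters GAGGAAG were searched for on both strands of the RefSeq promoter windows of build GRCr8. On the opposite strand these letters read CTTCCTC. These windows hold 250 bases before and 50 bases after each gene's start, and 24 of the 36 genes had one. The letters occurred in 10 of 24 windows (41.7%), against 4149 of 33469 windows of all genes (12.4%). In the last 80 bases before the start they occurred in 7 of 24 (29.2%), against 1206 of 33469 (3.6%). The 7 stretches with a match are shown, with CTTCCTC in capitals; the other 17 members with a window have no match in the last 80 bases. They lie at chr1:192089512-192089591 on the plus strand for Itgam, chr2:185775316-185775395 on the plus strand for Ctss, chr2:197087897-197087976 on the minus strand for Cd53, chr5:85161167-85161246 on the plus strand for Tlr4, chr5:148371800-148371879 on the plus strand for Laptm5, chr9:20151780-20151859 on the minus strand for Trem2 and chr17:82157645-82157724 on the plus strand for Mrc1, each written 5′ to 3′ on the gene's strand.
Itgam: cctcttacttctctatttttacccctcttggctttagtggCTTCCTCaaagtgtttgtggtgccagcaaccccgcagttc
Ctss: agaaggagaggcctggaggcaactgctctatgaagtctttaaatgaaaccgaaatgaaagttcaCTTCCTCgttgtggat
Cd53: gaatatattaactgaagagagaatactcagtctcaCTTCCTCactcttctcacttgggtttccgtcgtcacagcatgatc
Tlr4: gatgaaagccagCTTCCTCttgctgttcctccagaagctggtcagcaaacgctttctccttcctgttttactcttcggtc
Laptm5: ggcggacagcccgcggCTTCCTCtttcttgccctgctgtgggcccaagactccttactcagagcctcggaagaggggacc
Trem2: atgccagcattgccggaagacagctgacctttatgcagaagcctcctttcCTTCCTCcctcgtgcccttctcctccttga
Mrc1: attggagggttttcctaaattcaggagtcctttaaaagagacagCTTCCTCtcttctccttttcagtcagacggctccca
The same stretches of Gpr34 (chrX:11785837-11785916, minus strand) and Fyb1 (chr2:57416396-57416475, plus strand), the members with the lowest p-values at 10 days below, held no match anywhere in their windows.
Gpr34: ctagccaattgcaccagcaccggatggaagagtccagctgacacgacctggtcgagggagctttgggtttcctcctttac
Fyb1: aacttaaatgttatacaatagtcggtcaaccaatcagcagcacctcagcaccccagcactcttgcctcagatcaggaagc
A match is a run of letters and says nothing about binding, and its absence says only that these letters are not in this window.

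Values are log2 signal, on which a difference of 1 is a 2-fold difference, and signals of different genes cannot be set against each other because each probe responds differently. Feature medians of the 8 arrays lay between 6.62 and 6.73. The array names carry 3 prefixes whose meaning the labels do not give: 1 for the 24 h pair 1, 1 shared by the 24 h pair 2 and the 10-day pair 1, and 1 for the 10-day pair 2, whose arrays correlated at 0.968 with each other and at 0.897 to 0.939 with the rest. The 3 defining markers were present. Csf1r lay between 9.35 and 10.81 and C1qa between 8.25 and 9.23, far above the 25th percentile of genes, which was 5.57 to 5.70. Aif1, the calcium-binding protein IBA1, was low at 5.69 to 6.85 but above that percentile on each of the 8 arrays. By the mean over the 8 arrays, 9 of 11 lymphocyte genes lay under the 25th percentile of such means, as did 8 of 8 granulocyte and mast cell genes.

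Microglia and macrophage genes differed between replicate controls, which received no FGF9. In the 24 h controls 31 of 35 were higher in replicate 1 than in replicate 2, against 49.5% of all genes, with a median difference of 0.86 beside -0.0045 over all genes. Of these, 16 were over 1 log2 unit higher, against 2.65% of all genes. In the 10-day controls 29 of 35 were higher in replicate 1, against 50.4% of all genes, with a median of 0.78, and 11 were over 1 unit higher, against 9.56%. Among the FGF9 arrays 26 of 35 were higher in replicate 1 at 24 h, against 48.2%, with a median of 0.49. At 10 days 19 of 35 were, against 51.7%, and the median of 0.026 came from genes of both signs: 4 (Itgb2, Ptprc, Fcgr2b and Mrc1) were over 1 unit higher in replicate 1, against 6.83% of all genes, and 7 (Tyrobp, Trem2, P2ry13, Spi1, Cd14, Tlr4 and Tlr7) over 1 unit lower, against 10.4%. Fcgr2b, Cd163, Tlr2 and Tlr4 were the 4 genes lower in replicate 1 of the 24 h controls, and Tyrobp, Trem2, Lyz2, Spi1, Cd163 and Tlr7 were the 6 in the 10-day controls.

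**Figure D1:**
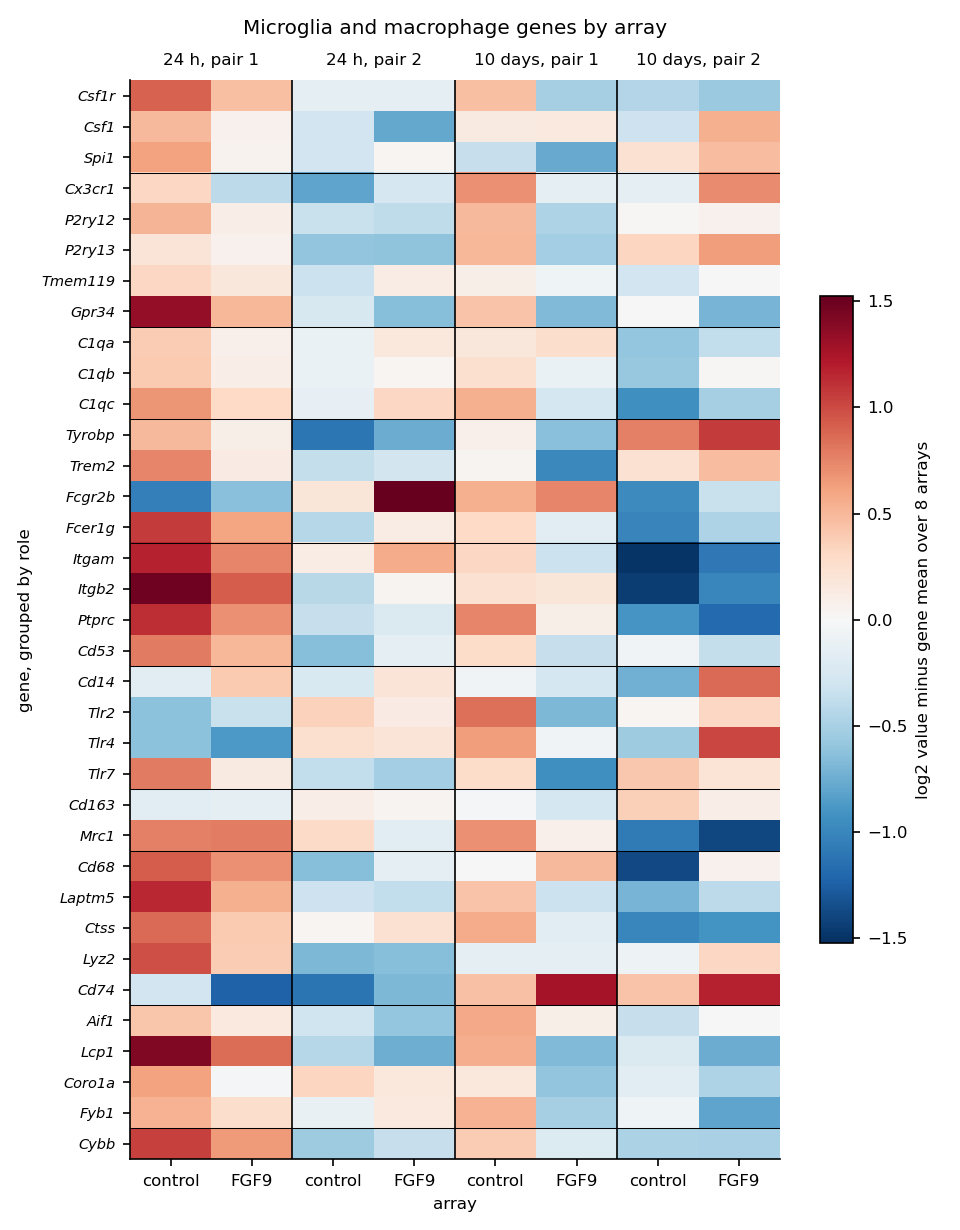
Each row is 1 of the 35 measured genes, grouped by role, and each column 1 array, with control and FGF9 arrays of a pair side by side; colour gives the log2 value minus the gene's mean over the 8 arrays. The control of the 24 h pair 1 was the array with the highest mean over the genes, at 8.83, and that of the 10-day pair 2 was the lowest, at 7.90.

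The median contrast with FGF9 over the members had opposite signs in the pairs of each time. Pair numbers are replicate numbers and do not link the 2 times. The pairs that share a prefix are the 24 h pair 2 and the 10-day pair 1, whose medians were 0.13 and -0.64. In pair 1 most genes were lower with FGF9: 30 of 35 at 24 h, against 51.1% of all genes, with a median of -0.42, and 30 of 35 at 10 days, against 48.3%, with a median of -0.64. In pair 2 most were higher, and only 14 of 35 were lower at 24 h, against 50.1%, with a median of 0.13, and 11 of 35 at 10 days, against 48.5%, with a median of 0.30. The medians over all genes were between -0.0064 and 0.014 in the 4 pairs. At each time 19 genes were lower in pair 1 and higher in pair 2, against 18.2% of all genes at 24 h and 18.3% at 10 days. At 10 days none of the 35 went the other way, against 18.5% of all genes. The difference within a pair and the difference between replicate controls share the same control arrays, so they are not separate observations: the pair whose control was the higher one was the pair with lower values under FGF9. Over the 35 genes the mean log2 value moved from 8.83 in the control to 8.48 with FGF9 in the 24 h pair 1 and from 7.99 to 8.14 in pair 2. At 10 days it moved from 8.61 to 8.06 in pair 1 and from 7.90 to 8.16 in pair 2. The FGF9 values thus lay between those of the controls at both times.

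**Figure D2:**
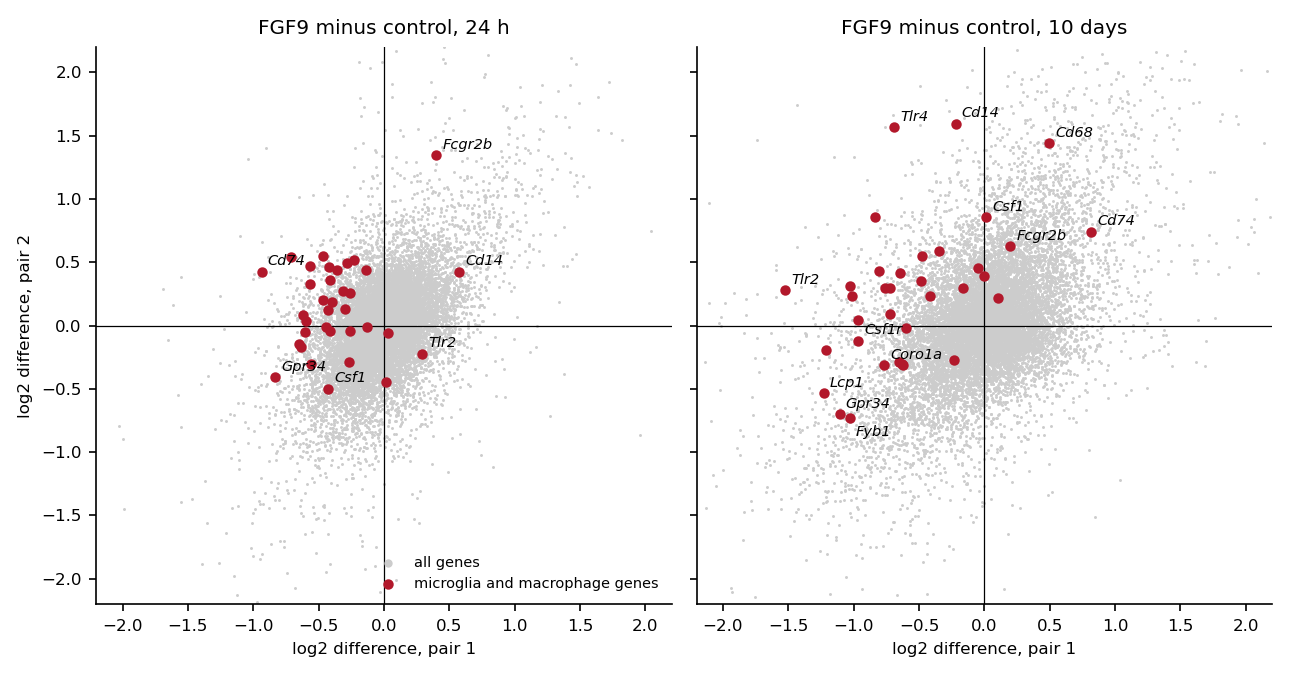
The log2 difference of FGF9 minus control in pair 1 (horizontal) is set against that in pair 2 (vertical) at 24 h and 10 days, with 1 point per gene, microglia and macrophage genes in red, all genes in grey, and grey points beyond the axes not drawn. At each time 19 red points lie in the upper left part, lower in pair 1 and higher in pair 2.

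A smaller number of genes held 1 direction through both pairs of a time, 13 of 35 at 24 h and 16 of 35 at 10 days. At 24 h 2 genes were higher in both pairs, against 31.8% of all genes, and 11 were lower in both, against 32.9%. At 10 days 5 were higher in both, against 33.2%, and 11 were lower in both, against 30.0%. Csf1r, Tlr7, Gpr34, Lcp1 and Coro1a were lower with FGF9 in all 4 pairs. These 5 genes are 14.3% of the members, nearly the same share as the 14.1% of all genes. Fcgr2b, which encodes the inhibitory Fc gamma receptor, was the 1 gene higher in all 4, against 14.2%. Counted over arrays in place of pairs, control and FGF9 values did not overlap for Cd14 (higher) and Coro1a (lower) at 24 h, 1 gene each way, against 17.5% and 14.5% of all genes. At 10 days they did not overlap for 3 higher genes (Cd68, Csf1 and Cd74), against 14.9%, and 7 lower genes (Csf1r, Cd53, Tlr7, Gpr34, Lcp1, Coro1a and Fyb1), against 11.3%. In percent the members' counts were 2.86% each way at 24 h, below the shares of all genes, and 8.57% higher and 20.0% lower at 10 days. An exact permutation test of 2 against 2 cannot give a two-sided p below 0.333 for a single gene.

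At 24 h no change in these genes passed a test. The limma fit with 1 mean per group, adjusted over 14506 genes, called 0 of 35 higher or lower and 0% of all genes, and the fit with the pair as a block also called 0 of 35 and 0% of all genes. At an unadjusted p under 0.05 the fit without the block held 0 higher and 0 lower members, against 1.23% and 0.696% of all genes. With the block it held 1 higher, Fcgr2b, against 5.88%, and 1 lower, Gpr34, against 6.53%. In pair 1 11 members were over 0.5 log2 units lower with FGF9, against 4.47% of all genes, and 4 members (Cd68, Cx3cr1, Fcgr2b and Fcer1g) were over 0.5 higher in pair 2, against 6.67%.

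At 10 days Gpr34 and Fyb1 were lower with FGF9 in both pairs, and they were the members that passed a test once pairs were taken into account. Without the block limma called 0 of 35 members and 0% of all genes, and at an unadjusted p under 0.05 it held 0 higher members, against 3.93%, and 2 lower, Coro1a and Fyb1, against 1.70%. With the pair as a block 2 of 35 fell, against 3.31% of all genes, and 0 of 35 rose, against 3.12%. The 2 lower members are 5.71% of 35, and 1 member would be 2.86%, below the background. In both directions together this fit called 933 of 14506 genes, so members were not called more often than genes in general. At an unadjusted p under 0.05 the block fit held 7 lower members (Ptprc, Mrc1, Tlr7, Gpr34, Lcp1, Coro1a and Fyb1), against 11.2% of all genes, and 2 higher, Cd68 and Cd74, against 12.7%. In pair 1 7 members were over 1 log2 unit lower, against 2.74% of all genes, namely Trem2, P2ry13, Tlr2, Tlr7, Gpr34, Lcp1 and Fyb1. In pair 2 3 members were over 1 unit higher, against 4.77%, namely Cd68, Cd14 and Tlr4.

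Gpr34 encodes a receptor for lysophosphatidylserine that is enriched in microglia. At 24 h it read 8.74 and 7.16 in the controls of pairs 1 and 2 and 7.91 and 6.76 with FGF9, and at 10 days 7.83 and 7.40 in the controls and 6.72 and 6.70 with FGF9. Each FGF9 array lay under its control, the 10-day groups did not overlap, and the spread of 1.12 (SD, n = 2) between the 24 h controls was larger than the differences within pairs, -0.83 and -0.41. At 10 days the mean difference was -0.90 (SE 0.59 without the block, 0.18 with it; limma adjusted p = 0.043 with the block), from pair differences of -1.11 and -0.70. The call was lost in limma without either 24 h pair (adjusted p = 0.062), without the 10-day pair 1 (0.098) or pair 2 (0.0503), and with the prefix as a random block (0.22). Its 24 h difference of -0.62 had an adjusted p of 0.27 in the block fit of limma.

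Fyb1 encodes the adhesion and degranulation adaptor ADAP, which links immune receptors to integrins. At 24 h it read 6.87 and 6.23 in the controls and 6.61 and 6.49 with FGF9, with opposite directions in the pairs. At 10 days it read 6.87 and 6.27 in the controls and 5.84 and 5.54 with FGF9, so that both FGF9 arrays lay below both controls. These FGF9 values were near the low end of the arrays. The 25th percentile of genes was 5.70 on the FGF9 array of pair 1 and 5.57 on that of pair 2, where Fyb1 lay under it. The 10-day difference was -0.88 (SE 0.31 without the block, 0.18 with it; limma adjusted p = 0.046 with the block), with pair differences of -1.03 and -0.73. This call too was lost in limma without either 24 h pair (adjusted p = 0.061), without the 10-day pair 1 (0.11) or pair 2 (0.070), with the random block (0.10), and with quantile normalization before the block fit (0.052). Against its 24 h effect the change differed by -0.88 with an adjusted p of 0.27 in the limma block fit.

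The other cytoskeletal genes, Lcp1, Coro1a and Aif1, were lower in pair 1 at both times and did not pass. Lcp1, the actin-bundling protein L-plastin of leukocytes, read 10.66 and 8.81 in the 24 h controls and 10.10 and 8.50 with FGF9, and at 10 days 9.80 and 9.02 in the controls and 8.57 and 8.49 with FGF9. Its 10-day difference was -0.88 (SE 0.20 with the block; limma adjusted p = 0.057), with pair differences of -1.23 and -0.53. Coro1a, an actin-binding coronin of leukocytes, was the gene whose groups did not overlap at either time. It read 9.32 and 9.03 in the 24 h controls and 8.68 and 8.86 with FGF9, then 8.87 and 8.55 in the 10-day controls and 8.10 and 8.23 with FGF9. The differences were -0.40 (SE 0.21) at 24 h and -0.54 (SE 0.21) at 10 days without the block, the latter with a limma adjusted p of 0.85, and of 0.15 with the block. Aif1 was lower in 3 of 4 pairs, by -0.27 and -0.29 at 24 h and -0.49 in the 10-day pair 1, and higher by 0.35 in the 10-day pair 2.

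**Figure D3:**
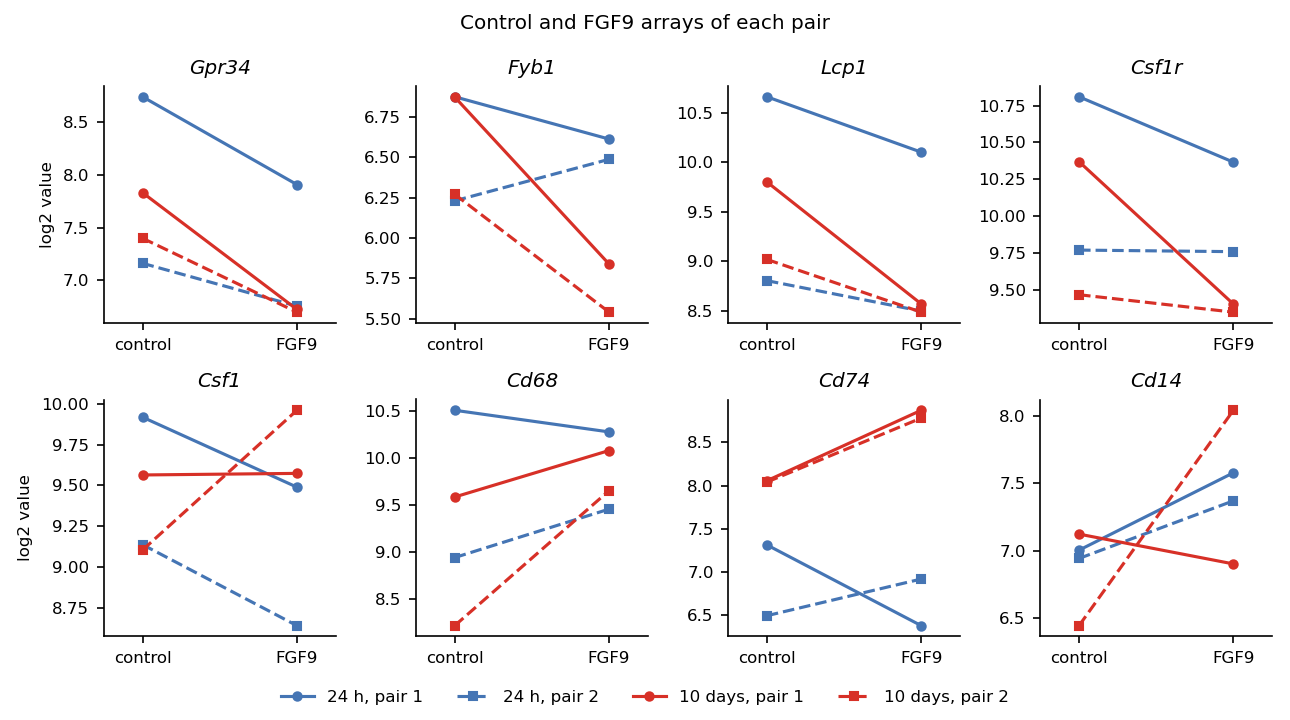
Log2 values of 8 members are drawn for control and FGF9, with a line for each pair (blue at 24 h, red at 10 days; circles and solid lines for pair 1, squares and dashed lines for pair 2); the vertical scales differ. Gpr34, Lcp1 and Csf1r lines go down in all 4 pairs, and Fyb1 lines go down in both 10-day pairs. Csf1 lines go down in both 24 h pairs, are nearly level in the 10-day pair 1 and go up in the 10-day pair 2.

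In the colony-stimulating factor axis the receptor was lower with FGF9 and the ligand turned between the times, without passing a test at either. Csf1r, the receptor on which microglia depend, read 10.81 and 9.77 in the 24 h controls and 10.37 and 9.76 with FGF9. At 10 days it read 10.37 and 9.47 in the controls and 9.40 and 9.35 with FGF9. The differences within pairs were thus -0.44 and -0.011 at 24 h and -0.97 and -0.12 at 10 days, so that nearly all of the difference lay in pair 1 at both times, and the 10-day mean difference of -0.54 (SE 0.23 with the block) had a limma adjusted p of 0.23. Csf1, its ligand, which glia and neurons also make, read 9.92 and 9.14 in the 24 h controls and 9.49 and 8.64 with FGF9, a difference of -0.43 and -0.50 in the pairs. At 10 days it read 9.56 and 9.10 in the controls and 9.57 and 9.96 with FGF9, a difference of 0.0097 and 0.86. The 10-day effect minus the 24 h effect was 0.90 (SE 0.31 with the block; limma adjusted p = 0.32). Spi1, which encodes PU.1, was lower with FGF9 in pair 1 at both times, by -0.57 and -0.42, and higher in pair 2, by 0.32 and 0.23.

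Among surface proteins of resting microglia, Cx3cr1 and Tmem119 were lower in pair 1 and higher in pair 2 at both times, while P2ry12 and P2ry13 were so at 10 days and were lower in both 24 h pairs. Cx3cr1, the fractalkine receptor, read 8.06 and 6.95 in the 24 h controls and 7.35 and 7.49 with FGF9, then 8.44 and 7.61 in the 10-day controls and 7.60 and 8.47 with FGF9. At both times the FGF9 arrays of the pairs moved toward or past each other's controls, with differences of -0.71 and 0.54 and then -0.84 and 0.86. P2ry12, the purinergic receptor of surveying microglia, differed by -0.97 in the 10-day pair 1 and 0.040 in pair 2, after -0.41 and -0.044 at 24 h. Its relative P2ry13 differed by -1.03 and 0.31 at 10 days and by -0.13 and -0.0083 at 24 h. Tmem119, a membrane protein typical of microglia, differed by between -0.17 and 0.44 over the 4 pairs. Gpr34, above, was the receptor of this group with 1 direction in all 4 pairs.

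The C1q subunits, which together form C1q, a part of the first complement component, were 3 genes with the same pattern at 24 h. C1qa read 9.23 and 8.73 in the 24 h controls and 8.91 and 9.01 with FGF9, and 9.01 and 8.25 in the 10-day controls and 9.11 and 8.47 with FGF9. C1qb read 10.26 and 9.76 in the 24 h controls and 9.96 and 9.89 with FGF9, and 10.11 and 9.29 in the 10-day controls and 9.76 and 9.88 with FGF9. C1qc ranged from 8.06 to 9.66. All 3 were lower with FGF9 in the 24 h pair 1, by -0.30 to -0.36, and higher in pair 2, by 0.13 to 0.44. In the 10-day pair 1 they parted, with C1qa at 0.10, C1qb at -0.35 and C1qc at -0.80, while in pair 2 they were higher by 0.21, 0.59 and 0.43.

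The immunoreceptor genes Trem2, Tyrobp and Fcer1g were lower in pair 1 and higher in pair 2 at both times. Trem2, the lipid-sensing receptor, read 6.87 and 7.07 in the 10-day controls and 5.86 and 7.30 with FGF9, and its adaptor Tyrobp read 8.32 and 9.01 in the controls and 7.60 and 9.30 with FGF9. Both were lower in pair 1, by -1.01 and -0.72, and higher in pair 2, by 0.23 and 0.30, and both stood higher in the pair 2 control than in the pair 1 control, unlike most members. At 24 h Trem2 differed by -0.62 and 0.080 and Tyrobp by -0.42 and 0.36. Fcer1g, the Fc receptor gamma chain, differed by -0.47 and 0.55 at 24 h and by -0.48 and 0.55 at 10 days. Fcgr2b read 6.66 and 7.88 in the 24 h controls and 7.06 and 9.23 with FGF9, then 8.24 and 6.73 in the 10-day controls and 8.44 and 7.36 with FGF9. It was higher with FGF9 in each pair, while its 10-day controls lay further apart than either 10-day pair, and the 24 h difference of 0.87 (SE 0.90 without the block, 0.25 with it) had a limma adjusted p of 0.27 with the block.

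The integrin chains and Ptprc differed more between replicate controls than with FGF9, and Cd53 did so at 24 h. Itgam (CD11b) read 8.05 and 6.99 in the 24 h controls and 7.62 and 7.45 with FGF9, and 7.20 and 5.38 in the 10-day controls and 6.56 and 5.79 with FGF9. The Itgam value of 5.38 lay under the 25th percentile of genes on that array, 5.61. Itgb2 (CD18), its partner, read 8.97 and 7.06 in the 24 h controls and 8.40 and 7.53 with FGF9, and 7.73 and 6.04 in the 10-day controls and 7.68 and 6.50 with FGF9. For both integrin chains the control arrays of a time were 1.06 to 1.91 apart, while differences within pairs reached -0.64 and 0.47 at the most. Ptprc (CD45), a phosphatase of all white blood cells, was lower in both 10-day pairs, by -0.66 and -0.29, and the tetraspanin Cd53 by -0.63 and -0.31, with limma adjusted p of 0.26 for Cd53 in the block fit. The controls differed by 1.47 at 24 h and 1.65 at 10 days for Ptprc, and by 1.43 and 0.34 for Cd53, whose 10-day control and FGF9 arrays did not overlap.

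Tlr4, Cd14 and Tlr2, genes of microbial sensing, were the members furthest apart between the 10-day pairs. Tlr4, the endotoxin receptor, read 8.15 and 6.97 in the 10-day controls and 7.46 and 8.53 with FGF9, a difference of -0.69 in pair 1 and 1.56 in pair 2. Cd14, which hands endotoxin to it, read 7.12 and 6.44 in the 10-day controls and 6.90 and 8.04 with FGF9, a difference of -0.22 and 1.59. In both, the pair 2 FGF9 array was the highest of the 8 arrays. Tlr2, a receptor for bacterial lipoproteins, went the furthest down in pair 1, from 7.11 to 5.58, and from 6.30 to 6.58 in pair 2. The 5.58 lay under the 25th percentile of genes on that array, 5.70. Tlr2 was as low without FGF9 in the control of the 24 h pair 1, at 5.64 beside a percentile of 5.67. Tlr7, which senses single-stranded RNA, differed by -0.65 and -0.15 at 24 h and by -1.21 and -0.19 at 10 days (limma adjusted p = 0.18 for the 10-day mean in the block fit). At 24 h Cd14 was higher in both pairs, with 7.00 and 6.94 in the controls and 7.58 and 7.37 with FGF9 (limma adjusted p = 0.66 with the block).

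Of the lysosomal and antigen-processing genes, Cd68 and Cd74 were higher with FGF9 in both 10-day pairs. Cd68, a lysosomal glycoprotein of phagocytes, read 10.51 and 8.94 in the 24 h controls and 10.28 and 9.46 with FGF9, and 9.59 and 8.21 in the 10-day controls and 10.08 and 9.65 with FGF9. Its 10-day groups did not overlap, and the difference of 0.97 (SE 0.67 without the block, 0.28 with it) had a limma adjusted p of 0.10 with the block, so it did not pass. Cd74, the invariant chain of MHC class II, read 7.31 and 6.49 in the 24 h controls and 6.38 and 6.92 with FGF9, and 8.06 and 8.04 in the 10-day controls and 8.87 and 8.78 with FGF9. The 10-day arrays of each group lay within 0.1 of each other, and the difference of 0.78 (SE 0.31 with the block) had a limma adjusted p of 0.20. Ctss (cathepsin S) differed by -0.47 and 0.20 at 24 h and -0.72 and 0.088 at 10 days, and Laptm5, a lysosomal membrane protein of blood cells, by -0.60 and -0.053, then -0.76 and 0.30. Lyz2 (lysozyme) stood at 12.56 in the control of the 24 h pair 1 and between 10.90 and 11.96 on the other 7 arrays.

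The remaining members were 3. Mrc1, the mannose receptor, was lower in both 10-day pairs, by -0.62 and -0.31 (limma adjusted p = 0.17 with the block), and at 24 h differed by 0.016 and -0.44. Cd163, the haemoglobin scavenger receptor of perivascular macrophages, stayed between 5.43 and 6.06, near the 25th percentile of genes, which was 5.57 to 5.70. Cybb, the catalytic subunit of the phagocyte oxidase, read 11.54 and 9.95 in the 24 h controls and 11.14 and 10.14 with FGF9, and 10.88 and 10.02 in the 10-day controls and 10.28 and 9.99 with FGF9, so that the difference between controls exceeded those within pairs.

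The times could be compared within 1 prefix, that shared by the 24 h pair 2 and the 10-day pair 1. The meaning of the prefix is not given and the replicate numbers differ, so such differences need not come from time alone. Within that prefix the controls were higher at 10 days for all but 3 members (Spi1, Cd163 and Coro1a), against 49.5% of all genes below 0, with a median of 0.64. The FGF9 arrays of that prefix were lower at 10 days for 20 of 35 members, against 48.9%, with a median of -0.13. This comparison has 1 array on each side and so no error. In the fit over all 8 arrays without the block the control median over members was -0.22, and with the block it was 0.27, so its sign rests on the prefix. The median in the FGF9 cultures changed sign too, from -0.18 without the block to 0.21 with it. The fit over all 8 arrays called 0 members in the controls, with and without the block. Of all genes it called 0% higher and 0.00689% lower with the block, and 0% without it. In the FGF9 cultures the block fit found that 2 members rose from 24 h to 10 days, against 4.88% of all genes, and 0 fell, against 6.07%, while without the block 0 members and 0% of all genes were called.

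The members called higher at 10 days than at 24 h in FGF9 cultures, only in fits with a block, were Cd74 and Csf1. They are 5.71% of the members, near the 4.88% of all genes that rose in the block fit. Cd74 rose by 2.28 (SE 0.38 with the block; limma adjusted p = 0.022), and the call held with the random block (0.041), without the 24 h pair 1 (0.029) and without the 10-day pair 2 (0.016). Cd74 was also higher at 10 days in the controls, by 1.24 in the block fit (limma adjusted p = 0.25). Csf1 rose by 1.13 (SE 0.27 with the block; limma adjusted p = 0.0495), a call that was lost with the random block (0.14) and without the 24 h pair 1 (0.11). Without the block the adjusted p was 0.14 for Cd74 and 0.66 for Csf1. The difference of the FGF9 effects between the times called 0 members in either fit, against 0.0483% of all genes higher and 0% lower with the block and 0% without it.

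Genes around these pathways that are not members were grouped in lists, with 167 of 186 entries measured, and those of phagocyte signalling and surface had negative medians in pair 1 and positive medians in pair 2 at both times. Of 49 genes of phagocyte signalling and surface 42 were lower with FGF9 in the 24 h pair 1 and 19 in pair 2, and 37 were lower in the 10-day pair 1 and 16 in pair 2. Their medians were -0.32, 0.12, -0.42 and 0.17 in that order, beside -0.0064, -0.00023, 0.014 and 0.013 over all genes. The block fit at 10 days called 1 of the 49, Cd83, which fell, against 3.31% of all genes lower in that fit. Cd83, a surface protein of activated antigen-presenting cells, read 7.39 and 7.93 in the controls and 6.59 and 7.08 with FGF9, a difference of -0.82 (SE 0.16 with the block; limma adjusted p = 0.042), a call lost without either 24 h pair (0.062), without the 10-day pair 1 (0.062) or pair 2 (0.11), and with the random block (0.11). Cd80, a costimulatory ligand, was 1.08 higher (adjusted p = 0.068), from 0.55 and 1.60, and the ATP-gated channel P2rx7 0.97 higher (0.076), from 0.47 and 1.47, in the same limma fit.

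Most genes of lipid handling and phagocyte activation were higher with FGF9 at 10 days. Of 17 genes, 11 were higher with FGF9 in pair 1 and 14 in pair 2, and 6 and 3 were lower, against 48.3% and 48.5% of all genes lower. Their medians were 0.19 and 0.47, beside 0.014 and 0.013 over all genes. The control of the 10-day pair 2 was low for this list, with a mean of 9.51 beside 10.1 to 10.7 on the other arrays. It read 9.56 for Gpnmb, beside 11.7 to 11.8 in the other controls, and 7.63 for Plin2, beside 8.98 to 9.61. The differences in pair 2 therefore rest in part on that 1 control array. In the block fit 2 rose and 0 fell, against 3.12% and 3.31% of all genes. At 24 h 5 were higher in pair 1 and 7 in pair 2, and 12 and 10 were lower, against 51.1% and 50.1% of all genes lower. Mertk, the receptor through which phagocytes take up dying cells, read 8.59 and 8.09 in the 10-day controls and 9.49 and 9.18 with FGF9. It rose by 1.00 (SE 0.14 with the block; limma adjusted p = 0.022), from 0.90 and 1.09 in the pairs, and it was lower at 24 h in both pairs, by -0.37 and -0.24. Plin2, the lipid droplet coat protein, rose by 1.39 (SE 0.25 with the block; limma adjusted p = 0.036), and was higher in all 4 pairs, by 0.70, 1.30, 0.96 and 1.81. Both limma calls were lost without the 10-day pair 2 (adjusted p = 0.054 for Mertk and 0.091 for Plin2) and with the random block (0.071 and 0.13). Gpnmb, a glycoprotein of lipid-laden phagocytes, differed by 0.77 and 2.62 (limma adjusted p = 0.068), and Gas6, a ligand of MERTK, by 1.22 and 0.44 (0.075). MERTK, PLIN2, GPNMB and GAS6 are also made by cells other than phagocytes, so these values need not be those of phagocytes. Lpl, lipoprotein lipase, was lower at 24 h by -0.80 and -0.45.

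No gene of the remaining pathway lists passed at either time in either fit. Il34, the other ligand of CSF1R, was lower in all 4 pairs, by -0.35, -0.86, -1.21 and -0.52 (10 days, limma adjusted p = 0.076 with the block), and Csf3r, the granulocyte colony-stimulating factor receptor, differed by -0.45 and -0.57 at 24 h and 0.57 and 0.58 at 10 days. The lists' counts of lower genes are given in the order 24 h pairs 1 and 2, then 10-day pairs 1 and 2, where 51.1%, 50.1%, 48.3% and 48.5% of all genes were lower. Of 10 growth factor and receptor genes 8, 4, 6 and 4 were lower. Tgfb1, a cytokine that maintains microglia, differed by 0.16 and 2.40 at 10 days, where the control of pair 2 read 6.84 beside 9.16 to 9.63 on the other 7 arrays. Of 10 myeloid transcription factors 9, 5, 4 and 3 were lower, with Irf5 at -0.36, -0.10, 0.29 and 0.50 and Cebpa at -0.18, 0.34, 0.19 and 1.11 in the 4 pairs. Of 8 perivascular macrophage genes 5, 3, 4 and 6 were lower, with the transglutaminase F13a1 at -1.18 and -0.42 at 10 days. The monocyte-attracting chemokines Ccl2 and Ccl7 were higher in all 4 pairs, Ccl2 by 0.89, 3.15, 2.08 and 1.00 and Ccl7 by 1.23, 3.65, 4.43 and 1.38, with limma adjusted p of 0.15 and 0.093 at 10 days in the block fit. Of 11 chemokine genes and receptors 6, 4, 6 and 4 were lower. Of 7 MHC class II genes 5, 2, 1 and 1 were lower, with RT1-Da at 1.61 and 0.52 and RT1-Bb at 0.56 and 0.30 at 10 days.

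Markers of other cells differed between the same arrays. The 7 myelin and oligodendrocyte genes were all higher in replicate 1 of the controls at both times, with medians of 2.03 at 24 h and 1.58 at 10 days. The 8 neuron genes were all lower in replicate 1 at 24 h (median -1.04) and 7 of 8 were at 10 days (-0.90), and the 7 fibroblast and pericyte genes were all higher in replicate 1 at 10 days (2.82) and 4 of 7 at 24 h (0.044). Of 8 astrocyte genes 3 were higher in replicate 1 at each time, with medians of -0.11 and -0.23 over genes of both signs, such as Slc1a3 at -0.48 and -0.79 and S100b at 0.54 and 0.45. Of 6 endothelial genes 3 were higher in replicate 1 at 24 h and 5 at 10 days, with medians of -0.047 and 0.92. With FGF9 all 8 neuron genes were lower in every pair, and 6 of 8 fell in the block fit at 10 days, against 3.31% of all genes. In that fit 1 of 7 fibroblast and pericyte genes rose, against 3.12%. The astrocyte genes were all lower in both 24 h pairs (medians -0.60 and -0.96). At 10 days 6 of 8 astrocyte genes were lower in pair 1 (median -0.20) and 6 of 8 were higher in pair 2 (median 0.23). In the 24 h pairs the mean of the myelin list was 11.5 and 9.35 in the controls and 10.8 and 8.74 with FGF9, and that of the neuron list 10.3 and 11.4 in the controls and 10.2 and 11.1 with FGF9. In the 10-day pairs the myelin mean was 10.9 and 9.28 in the controls and 10.8 and 9.06 with FGF9, and the neuron mean 10.8 and 11.8 in the controls and 9.92 and 10.9 with FGF9. The part of these cell proportions, and of the prefix, in the values of the microglia and macrophage genes was not tested.

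**Figure D4:**
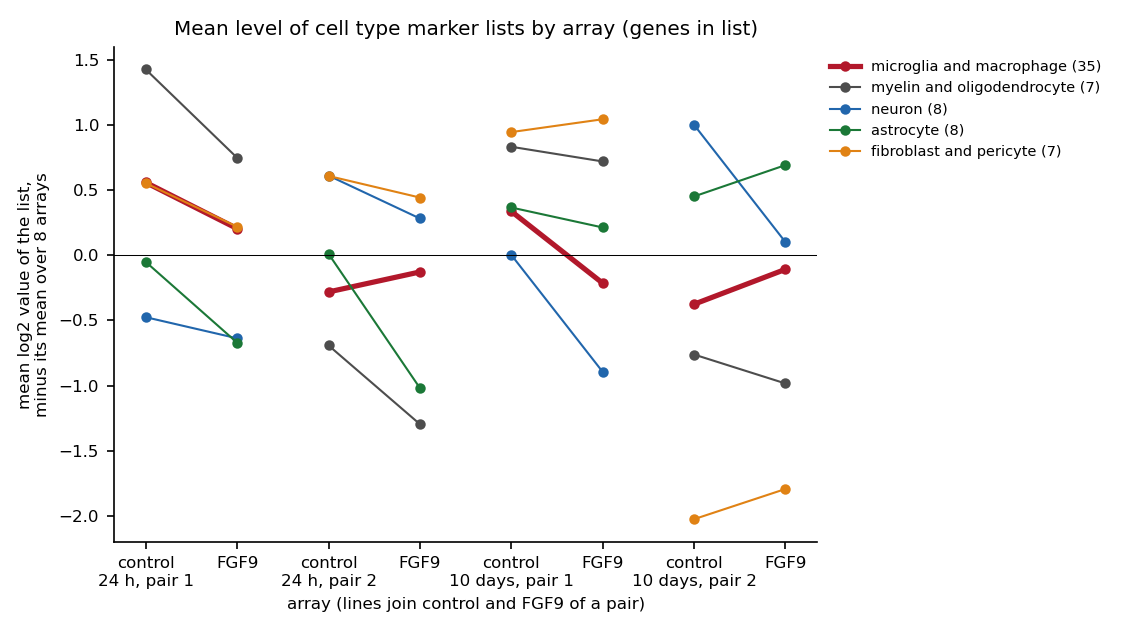
The mean log2 value of each marker list on each of the 8 arrays is drawn minus the list's mean over the arrays, with lines joining control and FGF9 of a pair and the number of genes in the legend. The microglia and macrophage line goes down in pair 1 and up in pair 2 at both times, while the neuron line goes down in all 4 pairs. The astrocyte line also goes down in pair 1 and up in pair 2 at 10 days, and goes down in both 24 h pairs.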

How the data were processed

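Total RNA of the 8 cultures was hybridised to Affymetrix Rat Gene 1.0 ST arrays. The deposited table holds 1 log2 value per feature and array, from 3.61 to 14.6; the scale is read from the values. The authors used Partek 6.5 and GCRMA, per the submitters' processing notes, with order and settings not given in the sources used here.

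Of 29214 features 15310 had 1 symbol, 323 several and 13581 none, and only the first were used. For the 527 genes with several features the one with the highest mean was taken, which applied to 0 members. All 35 measured members were found by Entrez identifier in RefSeq and 0 symbols changed. Members and lists were chosen with earlier results of these data known, so no pattern of them is independent support.

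The 5 contrasts were taken from linear models of limma 3.58.1, run in R 4.3.3 on all 8 arrays with a mean for each group and moderated variances, which leaves 4 residual degrees of freedom. The p-values were adjusted by the Benjamini-Hochberg method over 14506 genes, with a threshold of 0.05. A second model also fits a term per array name prefix; within a time this is the pair, and 2 degrees of freedom remain. Log2 differences with FGF9 are the same in both fits. Pairing was checked by the correlation across genes of deviations from the group means, which was 0.757 at 24 h and 0.819 at 10 days between same-numbered arrays; the typical residual SD was 0.30 without and 0.145 with the block. Block values are therefore given beside results they change. Errors and SDs are on the log2 scale, and the number of arrays limits the precision. The fits were tested on simulated data.

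All members are named. Of each other pathway list up to 4 genes with the smallest unadjusted p at 10 days in the block fit and up to 2 at 24 h may be named; the lists are myeloid transcription factors, myeloid growth factors and receptors, phagocyte signalling and surface, perivascular and border macrophage, lipid handling and phagocyte activation, chemokines acting on myeloid cells, MHC class II, and 7 cell type lists (lymphocyte, granulocyte and mast cell, astrocyte, myelin and oligodendrocyte, neuron, endothelial, fibroblast and pericyte) for which counts are given, with medians for all but the lymphocyte and granulocyte lists. Alternatives were the fixed and random block, each array or pair left out, quantile normalization, subtracted array medians, removal of low genes, the mean over features, and trend with robust variance; the block with quantile normalization or without low genes, and the normalizations of pair differences, were chosen after seeing the data.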

Additional observations from a re-analysis of the deposited data

Results flagged for a closer look

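Csf1 and 7 of the genes named from the pathway lists were lower with FGF9 in both 24 h pairs and higher in both 10-day pairs, so that every pair of 1 time went against every pair of the other. Among all genes 1965 (13.5%) were opposite at the times in this way. The 7 list genes came from genes picked for low p-values in the block fit, so 8 of 70 candidates cannot be set against that share. Of the 35 measured members only Csf1 was opposite, with 10-day differences of 0.0097 in pair 1 and 0.86 in pair 2. The 10-day effect minus the 24 h effect was 0.90 for Csf1, 0.62 for Irf5, 0.55 for Bach1, 1.08 for Csf3r, 1.16 for P2rx7, 1.30 for Mertk, 2.19 for Gpnmb and 0.92 for RT1-DMa on the log2 scale. None of these differences passed the limma test of the difference itself: the adjusted p with the block lay between 0.18 for Mertk and 0.35 for Bach1.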

How the results depend on the processing

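The limma calls at 24 h stayed at 0 of 35 members under all alternatives run, and no called value changed direction. At 10 days the count of members called was 0 without the block and 2 with the replicate block; the random replicate block gave 0. The block gave 4 without the 10-day pair 1 (Cd68, Csf1, Cd14 and Tlr4, all higher) and 4 without pair 2 (P2ry13, Tlr2, Tlr7 and Lcp1, all lower), 1 with quantile normalization and 2 with low genes removed. For 10 days minus 24 h in FGF9 cultures it was 0 without the block, 2 with it, 1 with the random block, 1 without the 24 h pair 1, 4 without the 10-day pair 2, and 2 each with quantile normalization or low genes removed. For the difference of effects the block without the 10-day pair 1 called 2 (Csf1 and Tlr4). The block changed no other call of a member. Over all genes the block called 933 at 10 days, against 0 without it and 151 with the random block.

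The median over members was -0.10 at 24 h, with a range of -0.64 to 0.32 when 1 array was left out, -0.21 at 10 days (-0.63 to 0.34), and -0.14 for the difference (-0.60 to 0.45). The low ends came without a replicate 2 control, except for the difference, where it came without the replicate 1 control at 24 h. With the block and without the 10-day pair 1 the median was 0.30 at 10 days and 0.33 for the difference. The control time median was -0.22 without the block and 0.27 with it, 0.40 without the 24 h pair 1, 0.49 without the 10-day pair 2, 0.30 with the block and quantile normalization and 0.27 with the block and low genes removed; the cause was not tested. Time contrasts with the block could not be fitted without a pair of the shared prefix. When arrays were left out in turn, 32 of 35 members changed sign at 24 h and 21 at 10 days at least once, all below the threshold. A lone remaining array was assumed to vary like the other groups.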
